A study of Bubalus bubalis with 12 samples.

Results

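The cholesterol synthesis genes described here are SREBF2, HMGCS1, IDI1, FDFT1, SQLE, LSS and DHCR7, 7 of the 34037 genes of the deposited expression table. They were chosen by name. For 6 of them the table gives the symbol itself. IDI1 stands in the table as LOC102414371, and was matched through its NCBI gene identifier, 102414371, to the symbol IDI1 in RefSeq (assembly NDDB_SH_1). Ruminal wall was collected at slaughter from 12 Italian Mediterranean dairy buffaloes (Bubalus bubalis). Control animals (n = 6) ate a total mixed ration (TMR). Treated animals (n = 6) ate TMR to which freshly cut ryegrass was added as green feed, at about 30% of the diet. All were mature lactating cows of several parities from 1 farm, and both rations were balanced for nitrogen and energy. They differed in other components besides ryegrass, such as corn silage, hay and soybean meal. Each animal gave 1 stranded total RNA library, and no animals were pooled.

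Animal cells make cholesterol from acetyl-CoA. The acetate units are joined to mevalonate, mevalonate is converted into activated isoprene units, these are condensed to squalene, and squalene is oxidised and folded into lanosterol, from which further steps lead to cholesterol. SREBF2 encodes SREBP-2, a transcription factor held in the membrane of the endoplasmic reticulum together with SCAP and the INSIG proteins while sterols are plentiful. When sterols run short it is carried to the Golgi, cut free by proteases, and switches on the genes of this pathway. In the rumen the pathway runs in a stratified squamous epithelium, and diets rich in fermentable feed are known to alter it.

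Values are FPKM, the fragments counted on a gene scaled by its length and by all fragments counted in that animal, so levels can be compared between genes. Between 10531541 and 12948372 fragments were counted on genes per animal. Of the 34037 genes, 12639 reached at least 42 reads in at least 1 animal and were tested with limma on log2(FPKM + 0.01). A log2 fold change is the treated minus the control mean on that scale, given with its standard error (SE). The median of all genes tested was 0.0052. The 12 libraries held the RNA of a mixed tissue. The 12 epithelial markers found summed to 4168 to 7826 FPKM in the control and 4507 to 8144 FPKM in the treated animals, with KRT14 and KRT6A not matched. The 8 fibroblast markers summed to 46.6 to 293 FPKM in the control and 20.9 to 183 FPKM in the treated group, and the 9 smooth muscle markers to 14.6 to 34.8 and 5.16 to 25.9 FPKM. The 5 fat cell markers summed to 0.247 to 0.771 FPKM in the control and 0.157 to 0.867 FPKM in the treated group. Of these, ADIPOQ and LEP were at 0 in all 12 animals, while CIDEC was found in each, at 0.145 to 0.867 FPKM.

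All 7 cholesterol synthesis genes were expressed in every animal and passed the filter, with 279 reads (SREBF2 in treated replicate 6) as the lowest number behind any value. Mean FPKM were lower in the treated group for HMGCS1, FDFT1, SQLE, LSS and DHCR7, close to equal for IDI1, and higher but widely scattered for SREBF2. None of these differences was larger than the spread between animals. With limma, 0 of the 7 reached nominal significance (an unadjusted p-value below 0.05), against 1.23% of all genes tested, split into 0.783% with a higher and 0.451% with a lower treated mean. No gene of the whole table had an adjusted p-value below 0.05, and the adjusted p-value of each of the 7 was 0.99965. Voom on the reads behind the FPKM also called 0 of the genes tested after adjustment, and 139 at a nominal p-value below 0.05, against 156 with limma on FPKM. In 5 of the 7 genes the mean log2 level was lower in the treated group, as it was in 48.8% of all genes tested. The median log2 fold change of the 7 genes was -0.18.

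**Figure D1:**
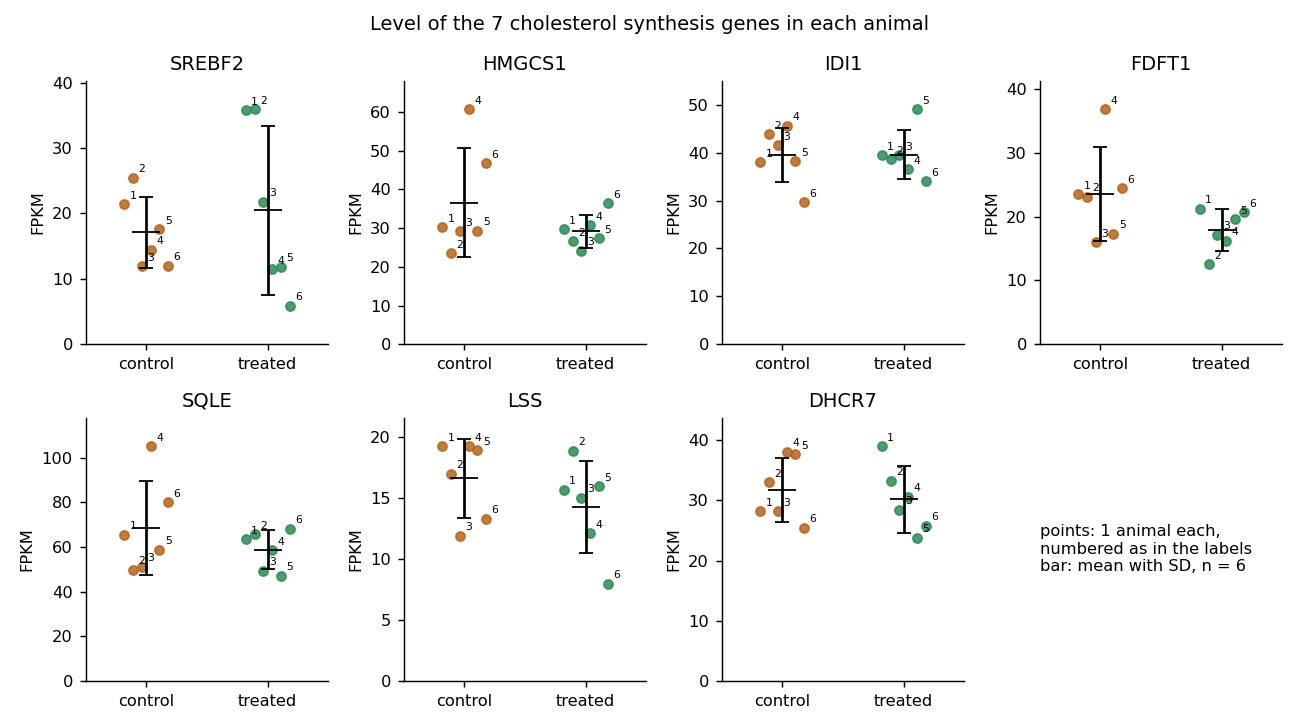
FPKM of the 7 cholesterol synthesis genes in each animal, 1 panel per gene, with control animals on the left and treated animals on the right of each panel. Points are single animals numbered by their replicate, and the horizontal line and bar give the mean and SD of 6 animals. Control replicate 4 stands above the others for HMGCS1, FDFT1 and SQLE. SREBF2 in the treated group is widely spread, from 5.86 to 35.9 FPKM, with treated replicate 3 between at 21.8 FPKM.

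SREBF2 (gene 102401994), the regulator, had the widest spread of the 7 genes. Its FPKM in the control group ran from 11.9 over a median of 16.0 to 25.4, and in the treated group from 5.86 over a median of 16.8 to 35.9. The treated animals thus lay on both sides of the controls, except treated replicate 3, which at 21.8 FPKM lay within the control range. Treated replicates 1 and 2, at 35.8 and 35.9 FPKM, were above every control animal, and treated replicates 4, 5 and 6, at 11.5, 11.8 and 5.86 FPKM, were below every control animal, although only treated replicate 6 was lower than control replicate 3, at 11.9 FPKM, by more than counting error. Counting error was small beside the range of the group. The 279 reads of treated replicate 6 give an exact 95% Poisson interval of 5.19 to 6.59 FPKM, and the 1619 reads of treated replicate 2 give 34.2 to 37.7 FPKM. Such intervals cover counting error only. Group means were 17.1 ± 5.44 FPKM (SD, n = 6) in the control and 20.4 ± 13.0 FPKM (SD, n = 6) in the treated group. Its log2 fold change was 0.03 (SE 0.40), with a 95% interval from -0.83 to 0.89 (exact permutation p = 0.959). Measured as a ratio of the mean FPKM the difference was 0.25 on the log2 scale, because the highest animals weigh more there. The spread of SREBF2 within groups, an SD of 0.80 on the log2 scale, was larger than that of 91.0% of the genes tested, and its highest value was 6.13 times its lowest.

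HMGCS1 (gene 102413038) encodes the cytosolic HMG-CoA synthase, an early enzyme on the way to mevalonate. Its FPKM ran from 23.5 over a median of 29.8 to 60.7 in the control group, and from 24.2 over a median of 28.5 to 36.4 in the treated group. Control replicates 4 and 6, at 60.7 and 46.7 FPKM, were above every treated animal, and the other 4 controls lay within or just below the treated range. Means were 36.6 ± 14.2 FPKM (SD, n = 6) in the control and 29.2 ± 4.25 FPKM (SD, n = 6) in the treated group. On the log2 scale the treated group differed by -0.26 (SE 0.21), with a 95% interval from -0.70 to 0.18 (exact permutation p = 0.301). Without control replicate 4 it was -0.098.

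IDI1 (gene 102414371) encodes isopentenyl-diphosphate isomerase, which interconverts the pair of isoprene units that later enzymes join. FPKM ran from 29.7 over a median of 39.9 to 45.6 in the control group and from 34.1 over a median of 39.0 to 49.1 in the treated group. The groups covered almost the same range, with the lowest value in control replicate 6 and the highest in treated replicate 5. Both means were 39.5 FPKM, with SDs of 5.65 in the control and 5.10 in the treated group (n = 6 each). The log2 fold change was 0.01 (SE 0.12), with a 95% interval from -0.26 to 0.27 (exact permutation p = 0.965). This was the steadiest of the 7 genes, with a within-group SD of 0.20 on the log2 scale, and only 13.9% of the genes tested had a smaller one.

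FDFT1 (gene 102411072) encodes squalene synthase, the first enzyme committed to sterols. In the control group its FPKM ran from 16.0 over a median of 23.3 to 36.8, and in the treated group from 12.5 over a median of 18.4 to 21.2. All 6 treated animals were below the control median. The groups overlapped, since control replicates 3 and 5, at 16.0 and 17.3 FPKM, lay among the treated animals. Means were 23.5 ± 7.39 FPKM (SD, n = 6) in the control and 17.9 ± 3.28 FPKM (SD, n = 6) in the treated group. The log2 fold change of -0.36 (SE 0.19) was the largest in size of the 7 genes, with a 95% interval from -0.78 to 0.06 (exact permutation p = 0.115). It came to -0.22 without control replicate 4, the highest animal. The nominal limma p-value of 0.0842 fell to 0.0310 without control replicate 3 and to 0.0473 without control replicate 5. These are the lowest controls, and leaving out either widens a difference of this direction. The p-value rose to 0.210 without control replicate 4 and to 0.193 without treated replicate 2, the lowest treated animal.

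SQLE (gene 102411716) encodes squalene epoxidase, which oxidises squalene and is a rate-limiting enzyme. It was the most strongly expressed of the 7 genes. FPKM ran from 49.7 over a median of 62.2 to 105 in the control group and from 47.1 over a median of 61.0 to 68.3 in the treated group. The medians were nearly equal, and control replicates 4 and 6, at 105 and 80.1 FPKM, were again the only animals above the treated range. Means were 68.4 ± 21.2 FPKM (SD, n = 6) in the control and 58.7 ± 8.81 FPKM (SD, n = 6) in the treated group. This gave a log2 fold change of -0.18 (SE 0.18), with a 95% interval from -0.57 to 0.20 (exact permutation p = 0.383), and -0.05 without control replicate 4.

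LSS (gene 102395472) encodes lanosterol synthase, which folds oxidised squalene into the first sterol of the pathway. Its FPKM ran from 11.9 over a median of 17.9 to 19.2 in the control group and from 7.97 over a median of 15.3 to 18.9 in the treated group. Treated replicate 6 alone, with 436 reads, lay below every control animal. Means were 16.6 ± 3.23 FPKM (SD, n = 6) in the control and 14.3 ± 3.76 FPKM (SD, n = 6) in the treated group. The log2 fold change was -0.24 (SE 0.20), with a 95% interval from -0.67 to 0.19 (exact permutation p = 0.299), and -0.085 without treated replicate 6.

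DHCR7 (gene 102394070) encodes the reductase that acts on 7-dehydrocholesterol, at the end of the route in which that sterol is the last intermediate. FPKM ran from 25.5 over a median of 30.6 to 38.1 in the control group and from 23.8 over a median of 29.5 to 39.1 in the treated group. Highest and lowest animals of all were both treated, replicates 1 and 5. Means were 31.8 ± 5.31 FPKM (SD, n = 6) in the control and 30.2 ± 5.51 FPKM (SD, n = 6) in the treated group. A log2 fold change of -0.08 (SE 0.14) resulted, with a 95% interval from -0.39 to 0.23 (exact permutation p = 0.595).

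In none of the 7 genes did the groups fail to overlap, which 0.0554% of the genes tested did. Exact permutation tests of 6 animals against 6 are two-sided and run over 924 assignments, with 0.00216 as the smallest p-value they allow. The limma intervals show what these animals could not resolve. As a ratio of treated to control, the interval of IDI1 ran from 0.837 to 1.20, that of DHCR7 from 0.765 to 1.17 and that of SREBF2 from 0.562 to 1.85. Ratios inside such an interval were compatible with the values of these animals, so the lack of a call is not to say that there was no difference.

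By mean FPKM over the 12 animals, SQLE stood first at 63.6, followed by IDI1 at 39.5, HMGCS1 at 32.9, DHCR7 at 31.0, FDFT1 at 20.7, SREBF2 at 18.8 and LSS at 15.4. Some steps in this order held in nearly every animal. SQLE was above IDI1 in 11 of 12 animals, and DHCR7 was above FDFT1 in 12 of 12. The remaining neighbours changed places between animals. IDI1 was above HMGCS1 in 9 animals, HMGCS1 above DHCR7 in 7, FDFT1 above SREBF2 in 7 and SREBF2 above LSS in 6. The order of LSS and SREBF2 thus differed from animal to animal.

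**Figure D2:**
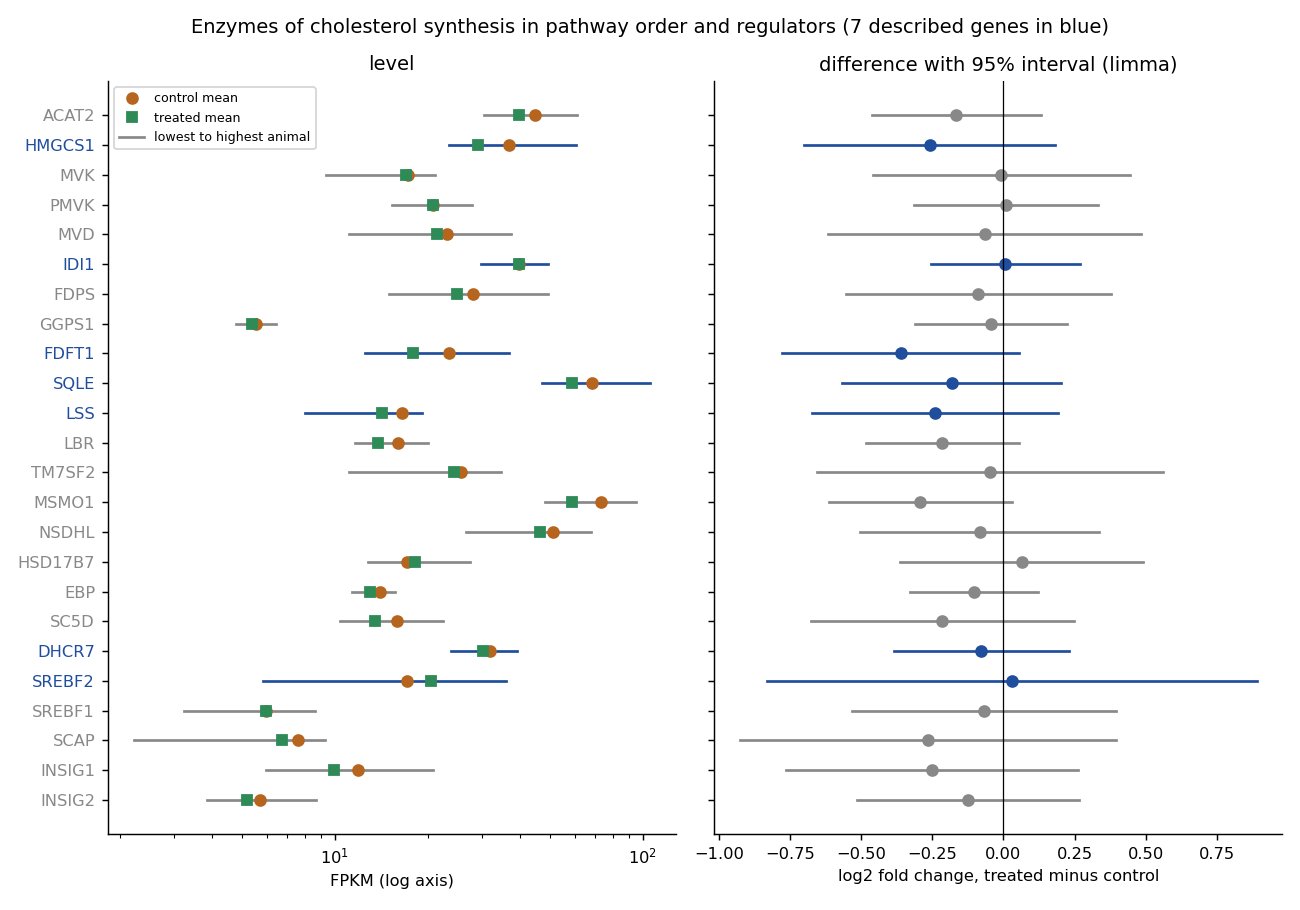
Left, FPKM (log axis) of the 6 enzymes described here and others of the pathway in their order, followed by SREBF2 and other regulators. GGPS1, drawn among the enzymes, belongs to a side branch. Circles and squares are the control and treated means of 6 animals each, and lines run from the lowest to the highest of the 12 animals. Right, log2 fold changes, treated minus control, with their 95% intervals from limma, in which the interval of every gene shown includes 0.

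The rest of the pathway was measured with a list of 17 further enzymes, of which 15 were found and tested. These include GGPS1, which belongs to a side branch and not to the route to cholesterol. IDI2 and CYP51A1 were not matched in the table. By limma, 0 of these 15 reached nominal significance in either direction. Mean log2 levels were lower in the treated group for 13 and higher for 2, against 48.8% lower over all genes tested. The median log2 fold change was -0.09. Control replicate 4 was the highest animal for 11 of the 21 enzymes, these 15 and the 6 described here. No count of directions without it is given. MSMO1, which removes methyl groups from the sterol, was among the enzymes with the largest differences. MSMO1 was at 73.1 ± 17.6 FPKM (SD, n = 6) in the control and 58.7 ± 7.12 FPKM (SD, n = 6) in the treated group, a log2 fold change of -0.29 (SE 0.15).

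Genes that control SREBP, and those that move sterols in and out of cells, showed no call either. All 13 genes of the SREBP regulation list were tested, and 0 reached nominal significance by limma. In 11 of them the mean log2 level was lower in the treated group, against 48.8% of all genes tested. The median log2 fold change of the list was -0.07. SCAP, the escort of SREBP, had the largest difference at -0.26 (SE 0.31), followed by INSIG1, which retains the complex in the endoplasmic reticulum, at -0.25 (SE 0.24). SREBF1, the paralogue that mainly serves fatty acid synthesis, was at 5.97 ± 0.713 FPKM (SD, n = 6) in the control and 5.96 ± 1.99 FPKM (SD, n = 6) in the treated group. Of 19 genes for uptake, transport, storage and efflux, 17 were found and 15 tested, with NPC1L1 and CH25H below the filter. Here too 0 reached nominal significance by limma, 9 had a lower and 6 a higher mean log2 level, and the median log2 fold change was -0.06. The largest differences were those of ABCG1, a sterol exporter, at 0.47 (SE 0.48), and of APOE, a lipoprotein component, at -0.39 (SE 0.35).

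The fatty acid arm of SREBP had 7 of 9 genes tested, with FADS1 and FADS2 below the filter, and 0 reached nominal significance by limma. Among these, 4 had a lower and 3 a higher mean log2 level in the treated group, and the median log2 fold change was -0.06. SCD, the stearoyl-CoA desaturase, had the largest difference at -0.36 (SE 0.29). Its controls lay close together, from 7.70 to 9.76 FPKM, while the treated animals ran from 3.20 to 14.0 FPKM. ACSS2, which activates acetate to acetyl-CoA, followed at 0.15 (SE 0.14).

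Most of the variation in the cholesterol synthesis genes was between animals of the same group. Over the 21 enzymes of the pathway, the 6 described here and the 15 others, control replicate 4 had the highest value of all 12 animals for 11 enzymes and was above the mean of the 12 for 19. Its mean deviation over the enzymes was 0.46 on the log2 scale, whereas those of the other 11 animals lay between -0.18 (treated replicate 6) and 0.04. It was also the highest control animal for all 6 enzymes described here. Control replicate 6 had the lowest value for 7 of the 21 enzymes, IDI1 among them, and yet the second highest value of HMGCS1 and SQLE.

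The 7 genes did not vary as 1 block. Pearson's r of log2(FPKM + 0.01) over the 12 animals, given as a description since all values of an animal share its library, depth and tissue piece, ran from -0.42 to 0.91 over the 21 pairs. It was above 0.5 in 6 pairs and negative in 6. HMGCS1 and SQLE varied together most closely, with r = 0.91 (Spearman's rho 0.77, n = 12), 0.81 without control replicate 4 and 0.67 without control replicates 4 and 6. FDFT1 went with HMGCS1 at r = 0.71 (rho 0.52) and with SQLE at r = 0.63 (rho 0.47), but these fell to 0.39 and 0.23 without control replicate 4, and so rested largely on that animal. MSMO1 had r = 0.89 to HMGCS1 (rho 0.76), 0.83 without control replicate 4 and 0.54 without control replicates 4 and 6.

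A second set of values went with the regulator. SREBF2 had r = 0.74 to LSS (rho 0.55, n = 12) and r = 0.59 to DHCR7 (rho 0.62), and LSS had r = 0.53 to DHCR7 (rho 0.52). Without treated replicates 2 and 6, the animals farthest from the median of SREBF2, its r to LSS was 0.46 and to DHCR7 0.54. In contrast, the r of SREBF2 was -0.42 to HMGCS1 (rho -0.51), -0.18 to FDFT1 (rho 0) and -0.12 to SQLE (rho -0.01). Animals with a high level of SREBF2 mRNA were therefore not those with high levels of these mRNAs. LSS was close to EBP, the sterol isomerase, with r = 0.80 (rho 0.80). IDI1 had its highest r among the 7 genes with LSS, at 0.45 (rho 0.37). Without control replicate 6 and treated replicate 5, the animals farthest from its median, its r was 0.57 to LSS, 0.50 to DHCR7 and 0.50 to FDFT1. With MVD, the decarboxylase just before it in the pathway, IDI1 had r = 0.82 (rho 0.67), and 0.72 without the same animals.

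**Figure D3:**
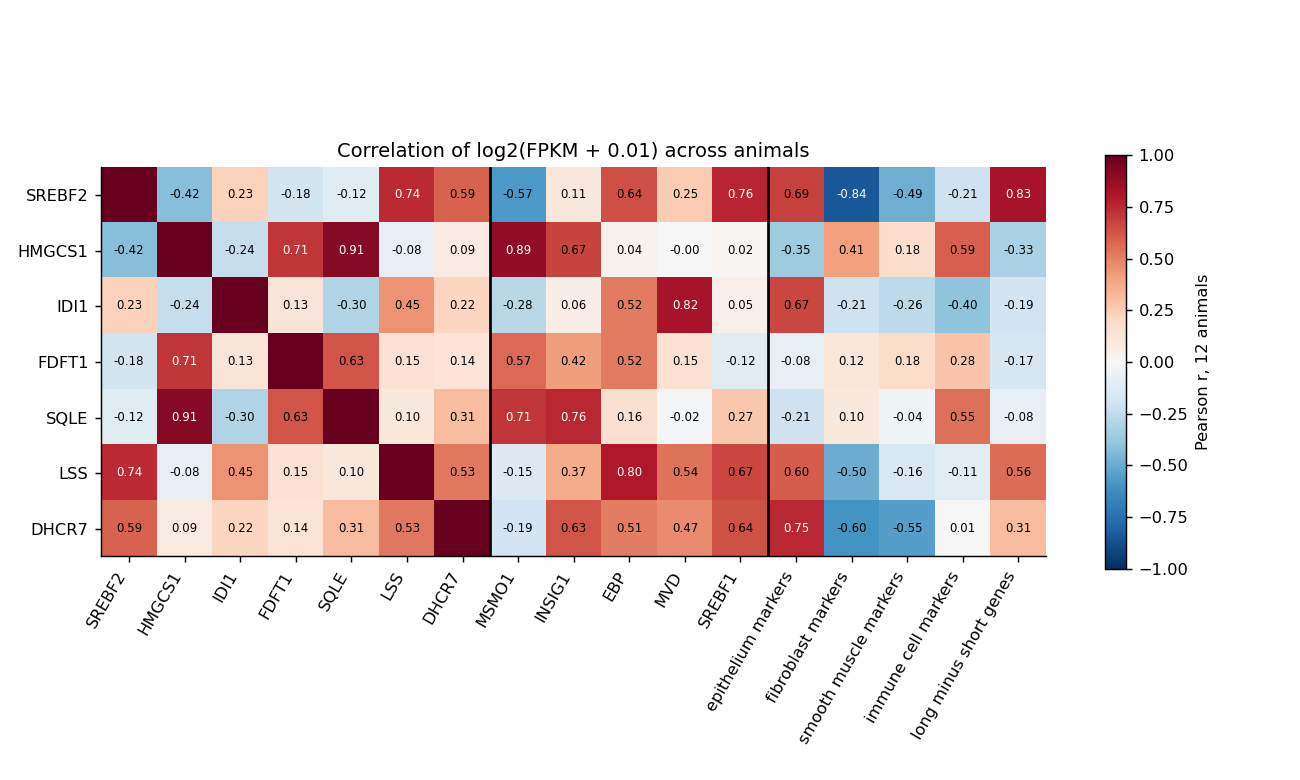
Pearson's r over the 12 animals between each of the 7 genes (rows) and, from left to right, the 7 genes, other genes of sterol metabolism, the mean log2 levels of marker lists, and the difference between long and short genes in each animal. Red is positive and blue is negative. HMGCS1, FDFT1 and SQLE form one group of positive values, SREBF2, LSS and DHCR7 another, and SREBF2 has its most negative value, -0.84, with the fibroblast markers.

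Markers of cell types moved with some of the 7 genes. SREBF2 had r = -0.84 (rho -0.87, n = 12) to the mean log2 level of the 8 fibroblast markers, and -0.93 without treated replicates 2 and 6. Within the groups the r was -0.89 in the 6 control and -0.91 in the 6 treated animals. To the epithelial markers it had r = 0.69 (rho 0.52). Their level is an unweighted mean of 12 markers. These include KRT4, low at 0.0854 to 1.81 FPKM and with a within-group SD of 1.42 on the log2 scale. DHCR7 had r = 0.75 (rho 0.78) to the epithelial and -0.60 (rho -0.68) to the fibroblast markers, and LSS had 0.60 (rho 0.52) and -0.50 (rho -0.53). IDI1 had r = 0.67 (rho 0.59) to the epithelial and -0.21 (rho -0.28) to the fibroblast markers. HMGCS1, FDFT1 and SQLE had r to the epithelial markers of -0.35, -0.08 and -0.21, and to the fibroblast markers of 0.41, 0.12 and 0.10. All 8 fibroblast markers and all 6 smooth muscle markers tested had a lower mean log2 level in the treated group, and DES alone among them reached nominal significance by limma. In such bulk samples, fewer cells of a type and less RNA per cell cannot be told apart. When a score of the fibroblast and smooth muscle markers was added to the limma model, the log2 fold change of SREBF2 turned to -0.54 (nominal p-value 0.0763). That of LSS went to -0.45 with a nominal p-value of 0.0321, the only 1 of the 7 below 0.05. With this score, 343 of the 12639 genes tested had a nominal p-value below 0.05, against 156 without it. After adjustment 0 passed in either model.

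SREBF2 also moved with a property of the libraries that is not particular to cholesterol synthesis. In each animal, the median log2 deviation of the longest genes tested (at least 7646 bp) was compared with that of the shortest (at most 1159 bp). The difference ran from -0.47 in treated replicate 6, the animal with the lowest SREBF2, to 0.33 in treated replicate 2, the animal with the highest. Over the 12 animals its r to SREBF2 was 0.83 (rho 0.80), and 0.68 without treated replicates 2 and 6. Within the groups this r was 0.44 in the 6 control and 0.999 in the 6 treated animals. SREBF2 itself, at 3741 bp, belongs to neither set. All these lengths were worked out from the steps of the FPKM values. For LSS the r was 0.56 (rho 0.28), for DHCR7 0.31, and for the remaining 4 genes it lay between -0.33 and -0.08. The part of RNA quality or tissue make-up in the spread of SREBF2 was not tested.

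**Figure D4:**
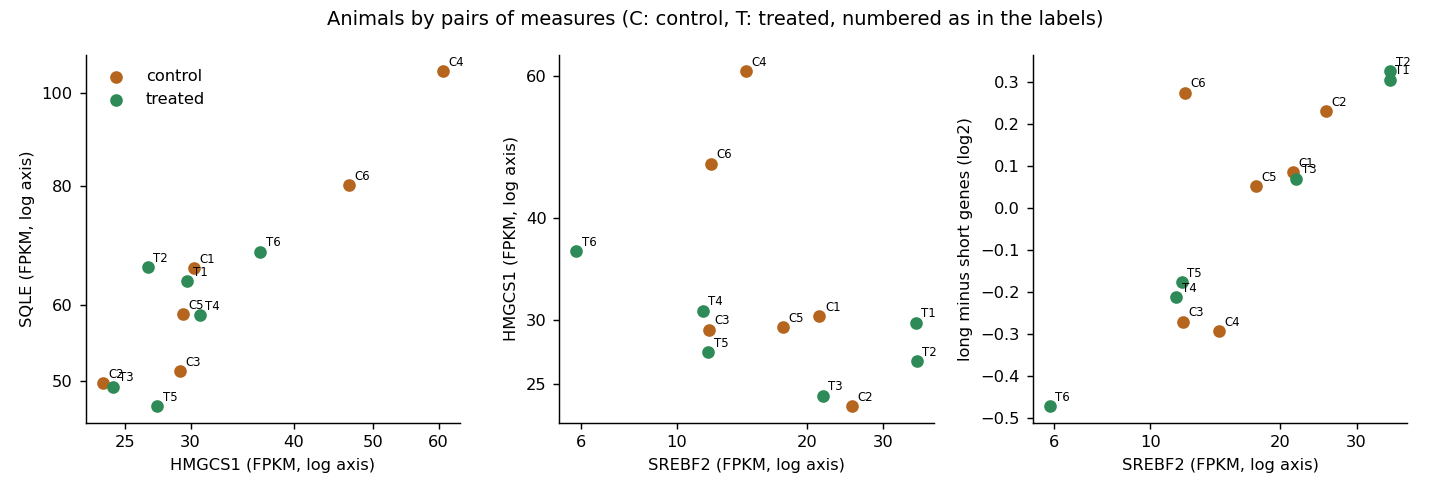
Each point is 1 animal, control (C) or treated (T) with its replicate number. Left, SQLE against HMGCS1 (FPKM, log axes), which rise together with control replicates 4 and 6 at the top. Middle, HMGCS1 against SREBF2 (FPKM, log axes), with no common rise and r = -0.42. Right, the log2 difference between long and short genes against SREBF2 (FPKM, log axis), with treated replicate 6 lowest and treated replicate 2 highest on both axes.

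The genes most like the 7 were found by ranking all other genes tested on Pearson's r, over the 12 animals and after centring each group, with the mean of the 7 standardised profiles. The first 10 were DHRS1 (r = 0.907), NFKB2 (0.901), SP6 (0.868), LPCAT4 (0.846), GIPC1 (0.841), CEACAM19 (0.836), SDF2L1 (0.834), LOC102392595 (0.832), AFAP1L2 (0.822) and HGSNAT (0.821). No other gene of the sterol lists was among them. Some were low, such as SP6 at a mean of 0.930 FPKM, and no r without control replicate 4 was worked out for this ranking.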

How the data were processed

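Total RNA of ruminal wall from 12 buffaloes was sequenced by the authors as stranded paired-end libraries. According to the submitters' processing notes, FastQC 0.11.5, Trimmomatic 0.39, STAR 2.5.2b and featureCounts 2.0.0 were used. The genome was UOA_WB_1, and counting used the strand and left out reads of low mapping quality. The authors deposited FPKM values per gene. The tool and gene lengths behind them are not given in the sources used here. RefSeq positions belong to another assembly and are not given. Of the table's columns, 12 matched the sample titles, and 4 that matched none were not used.

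Reads behind each FPKM were worked out from its steps, which gave whole numbers for 100% of values within 1e-06. The length of each gene was worked out with them, as the smallest that gave whole reads in every animal. These reads set the depth, from 10531541 to 12948372 fragments per animal. They also set the filter of at least 42 reads in at least 1 animal, with reads scaled to the mean fragment total. The study set its limit, which is rounded up here, on TMM-normalised values, so both filters differ. On the 12639 genes kept, limma 3.58.1 (lmFit and eBayes with trend, R 4.3.3) compared treated with control on log2(FPKM + 0.01) without covariates, and p-values were adjusted over all of them by Benjamini-Hochberg. Single genes were compared with exact permutation tests. The labels give no batch or date. Correlations are descriptions. Python 3.11.15, numpy 2.4.6, scipy 1.17.1, pandas 2.3.3 and matplotlib 3.10.9 were used, and the methods were tested on simulated data.

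The text names the 7 genes in full and, of each list of related genes, INSIG1 and SREBF1, any gene with a nominal p-value below 0.05 and those with the largest log2 fold changes, except a few that are not reported here. It also names the 10 genes most like the mean of the 7. DES, EBP, MVD and the genes most like SREBF2 alone were picked with their values known. The 7 genes and the lists were chosen with earlier results of these data known. Alternatives were pseudocounts of 0.1 and 1, other filters, median-ratio scaling, voom on the reads, robust empirical Bayes, a stromal marker score as a covariate, blocking on the replicate number, and leaving out each animal in turn. The ratio of mean FPKM, the correlations without control replicate 4 and the difference between long and short genes were added after seeing the data. Control and treated replicates with the same number are different animals, numbered as in the sample descriptions.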

Additional observations from a re-analysis of the deposited data

How the results depend on the processing

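With limma and with voom, 0 genes had an adjusted p-value below 0.05 under every alternative run. The number with a nominal p-value below 0.05, 156 as reported, was 562 with all genes above 0, 301 with genes of at least 0.1 FPKM in at least 6 animals, 343 with the score of stromal markers, and 142 to 328 with each animal left out in turn, the last without treated replicate 6. Of the 7 genes, 0 passed as reported and 1 did with the score of stromal markers, LSS at -0.45 on the log2 scale. With the score, SREBF2 reversed to -0.54 and IDI1 to -0.045, and the cause was not tested. Over 154 alternative values of the 7 genes, 3 had a nominal p-value below 0.05 and 12 changed sign, all of these for SREBF2 or IDI1, which lay near 0 as reported.

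With each animal left out in turn, 0 to 1 of the 7 genes passed. The log2 fold change ran from -0.19 to 0.33 for SREBF2, from -0.37 to -0.098 for HMGCS1, from -0.073 to 0.050 for IDI1, from -0.46 to -0.22 for FDFT1, from -0.26 to -0.048 for SQLE, from -0.33 to -0.085 for LSS and from -0.16 to -0.014 for DHCR7. SREBF2 was at -0.064 without control replicate 3, -0.0083 without control replicate 4, -0.062 without control replicate 6, -0.189 and -0.190 without treated replicates 1 and 2, and -0.046 without treated replicate 3. IDI1 was at -0.0022, -0.00045 and -0.073 without control replicates 1, 5 and 6, and -0.058 without treated replicate 5. FDFT1 was called at -0.46 without control replicate 3 and at -0.44 without control replicate 5.

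The replicate numbers were not taken to pair the animals, since no source says that a number marks anything shared. A control and a treated animal with the same number deviated from their group means with correlations across genes of -0.0083 to 0.41, above 0.1 in 4 of 6 pairs. The highest were 0.41 for number 6 and 0.39 for number 3. Of the 12 animals, 7 correlated best with their own number. How many would do so if the numbers meant nothing was not worked out, and whether they mark something shared was not tested. With the replicate number as a block, 320 genes passed at a nominal p-value below 0.05, and 0 of the 7 did. The numbers are those of the sample descriptions. The titles number control replicate 6 and all treated animals otherwise, which would pair other animals, and no block on those numbers was run. In the related lists, the block called 2 of the 15 other enzymes and 2 of the 15 genes of sterol uptake and transport, and the stromal score called 1 of the other enzymes and 1 gene of the fatty acid arm, where 0 passed as reported. Leaving out single animals, 1 of the other enzymes passed without control replicate 2, treated replicate 5 or treated replicate 6, 1 gene of sterol uptake and transport without control replicate 2 or treated replicate 6, and 1 of the fatty acid arm without treated replicate 1, while SREBP regulation stayed at 0. Among the related genes named here, the block brought MSMO1 and NPC2, both lower, and MYLIP, higher, below 0.05, and the score of stromal markers did so for SCD.

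Each of the 7 genes had at least 279 reads per animal. The parts of counting error, RNA quality and differences between animals in the width of the intervals were not tested.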

Other observations

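The genes whose levels followed SREBF2 alone most closely over the 12 animals, after centring each group, were longer than most. RPTOR, which encodes the mTORC1 subunit raptor, came first with r = 0.986, followed by PRRC2A (0.980), SPTAN1 (0.979), which encodes alpha-spectrin, KHSRP (0.979), CTNND1 (0.978), which encodes catenin delta, and TRRAP (0.978). By the worked-out lengths, the 10 closest genes had a median of 7453.5 bp, from 4094 to 12494 bp, against 3227 bp over all genes tested. None of the 10 belongs to the lists of sterol genes. For comparison, HSD17B7, an enzyme of the late pathway, had r = -0.82 (rho -0.78) to SREBF2 without centring, and SREBF1 had r = 0.76 (rho 0.64). Without treated replicates 2 and 6 these were -0.68 and 0.41. Within the groups, the r of SREBF1 was -0.22 in the 6 control and 0.91 in the 6 treated animals. That of HSD17B7 was -0.61 and -0.95. Both genes were chosen after their values were seen, as was the ranking on SREBF2 alone.

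With the mean of the 6 enzymes in place of the 7 genes, the closest were LOC102392595 (r = 0.865), NAB2 (0.854), BATF (0.849), NFKB2 (0.842) and DHRS1 (0.838). NFKB2, DHRS1 and LOC102392595 were among the 10 closest by both measures. NFKB2 encodes a subunit of the NF-kappaB family, and BATF a transcription factor of immune cells. Beside this, the mean log2 level of the immune cell markers had r = 0.59 to HMGCS1 (rho 0.76), 0.55 to SQLE (rho 0.48) and 0.28 to FDFT1 (rho 0.36), but -0.40 to IDI1 (rho -0.28), -0.11 to LSS (rho -0.15) and 0.01 to DHCR7 (rho -0.07). The immune markers summed to 34.1 to 54.1 FPKM in the control and 27.5 to 54.5 FPKM in the treated animals, and their part in the levels of these enzymes was not tested.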
